A study of Mus musculus with 6 samples.

Results

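The 10 genes described here are feedback targets of WNT signalling and WNT ligands of the primitive streak: Axin2, Nkd1, Sp5, Lef1, Tcf7, Lgr5, Rnf43, Znrf3, Wnt3 and Wnt8a. They were chosen by name, and all peaks of open chromatin that the authors assigned to them were taken, which gave 54 of the 70494 peaks in the table, between 2 for Wnt8a and 8 each for Axin2 and Lgr5. The assay was ATAC-seq, in which a transposase cuts accessible DNA and leaves adapters there for sequencing. All 6 libraries came from definitive endoderm made from mouse epiblast stem cells of 1 line, 7H OTX2-dTAG-EGFP (BL6/129 hybrid), in which OTX2, a homeobox transcription factor, carries a degradation tag and EGFP in both groups. The cells received 40 ng/ml Activin A with 3 uM CHIR for 16 h and then 100 ng/ml Activin A with 100 nM LDN for 24 h. CHIR inhibits the kinase GSK3 and thereby turns on WNT signalling, and LDN blocks BMP receptors; both groups received both. The 3 dTAG13 libraries came from cells given the degrader dTAG13 over 24 h, starting at the primitive streak, and the 3 DMSO libraries from cells given its solvent. By the series' design text the 3 libraries of each group are technical replicates, made from 50000 live sorted cells apiece, so the errors below need not include the spread between cultures.

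When a WNT ligand binds Frizzled and LRP5/6, beta-catenin escapes destruction, enters the nucleus and joins TCF/LEF proteins on DNA. Among the genes it turns on are brakes on the pathway itself. AXIN2 rebuilds the destruction complex, NKD1 acts on Dishevelled, and RNF43 and ZNRF3 remove Frizzled from the cell surface, an action that LGR5 with R-spondin opposes. LEF1 and TCF7 are TCF/LEF proteins, SP5 is a transcription factor that dampens WNT target genes, and Wnt3 and Wnt8a encode ligands of the posterior epiblast and streak, where WNT signalling is needed for mesoderm and endoderm to form.

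At most of these genes no assigned peak had an adjusted p under 0.05, the threshold used here. By the authors' deposited table, 3 of the 54 peaks had an adjusted p under 0.05 (5.56%), against 5.26% of all 69128 peaks with an adjusted p. A promoter peak of Axin2 rose after OTX2 loss, and a peak downstream of Axin2 and a peak in intron 4 of Nkd1 fell. Lower calls made up 2 of the 54, beside 3.79% of all peaks, and higher calls 1 of the 54, beside 1.47%. The shares lie near those of all peaks. An unadjusted p under 0.05 was given for 11 of the 54, 4 lower and 7 higher, while of all 70494 peaks 19.7% had one, 12.7% lower and 7.00% higher. The 54 peaks had log2 fold changes with a median of -0.11 (quartiles -0.67 and 0.47, median SE 0.60) in the authors' deposited table, beside -0.18 over all peaks (quartiles -1.01 and 0.39).

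**Figure D1:**
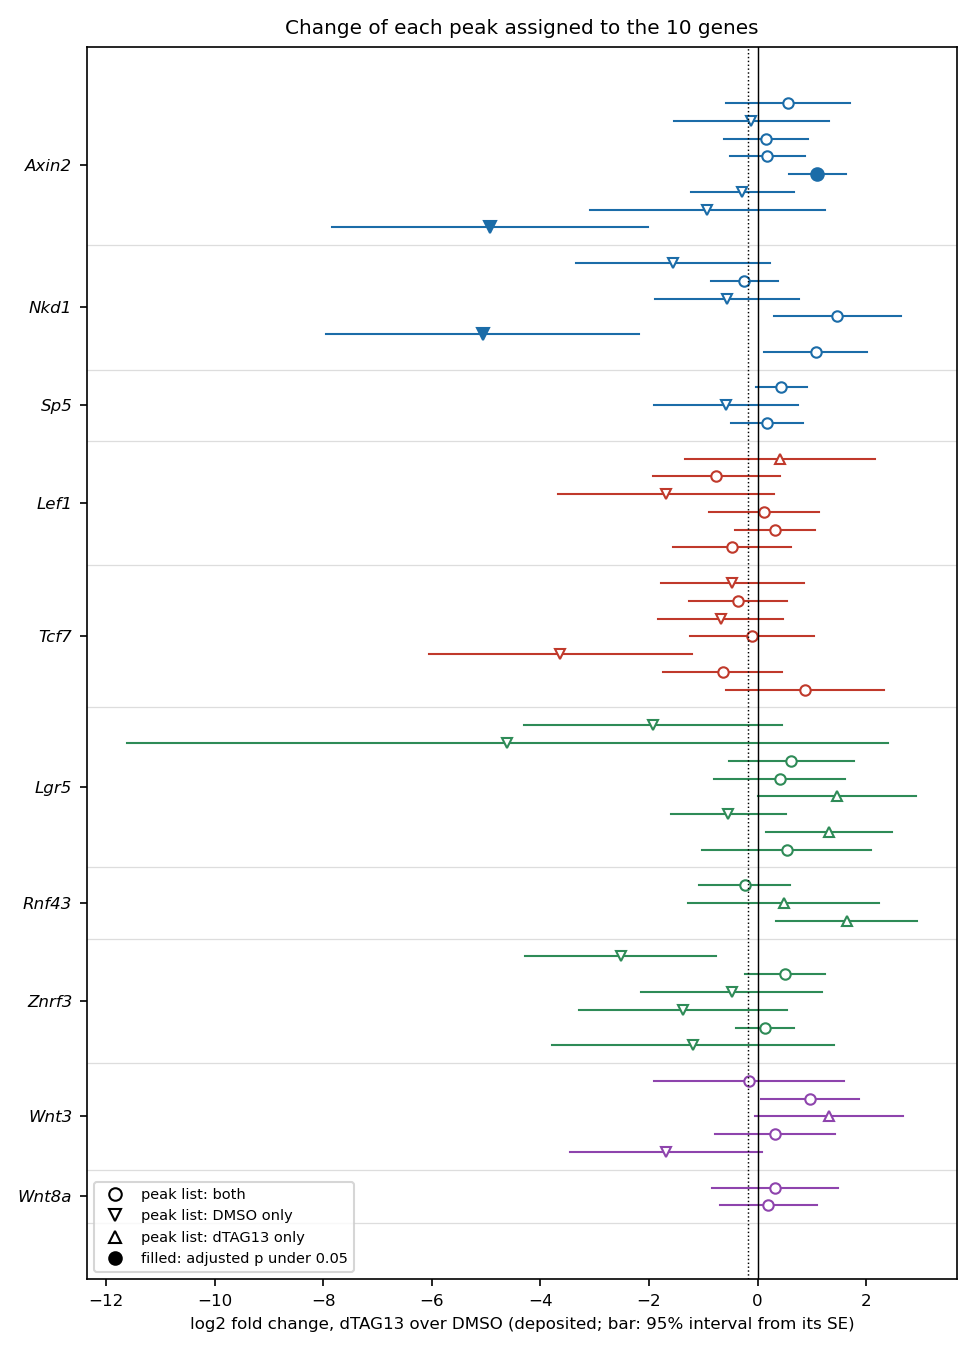
Log2 fold change of dTAG13 over DMSO for each of the 54 peaks, grouped by gene in genome order, with the 95% interval from the deposited standard error. Filled symbols mark the 3 called peaks (Axin2 1.10 and -4.93, Nkd1 -5.06), symbol shapes give the pooled peak list, and the dotted line is the median of all peaks (-0.18).

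The sequences of 7 peaks are shown because the results below turn on them: the 3 called peaks, the closest uncalled peaks (Tcf7 and Znrf3), the Lgr5 peak with the lowest fold change, and the strongest peak of the 10 genes, upstream of Sp5. They are from GRCm38.p6, the assembly of mm10, on the plus strand. Capitals mark the OTX consensus GGATTA, which reads as TAATCC where it lies on the minus strand. They also mark the TCF/LEF consensus CTTTGAT or CTTTGAA, of which the former reads as ATCAAAG on the minus strand.
Axin2 promoter peak, the part upstream of the first start site, chr11:108920131-108920348: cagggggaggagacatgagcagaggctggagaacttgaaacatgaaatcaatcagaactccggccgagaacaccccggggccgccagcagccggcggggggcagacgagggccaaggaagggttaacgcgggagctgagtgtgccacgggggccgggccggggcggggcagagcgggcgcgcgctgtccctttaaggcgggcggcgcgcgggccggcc
Axin2 downstream peak, chr11:108972384-108972460: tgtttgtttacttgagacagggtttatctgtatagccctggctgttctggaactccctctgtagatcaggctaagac
Nkd1 intron 4 peak, chr8:88575099-88575193: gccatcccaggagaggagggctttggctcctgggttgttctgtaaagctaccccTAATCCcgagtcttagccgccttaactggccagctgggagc
Tcf7 upstream peak, chr11:52305365-52305519: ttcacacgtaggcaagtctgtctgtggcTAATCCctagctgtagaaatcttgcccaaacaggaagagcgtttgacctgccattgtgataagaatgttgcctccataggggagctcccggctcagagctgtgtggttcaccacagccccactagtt
Znrf3 intron 1 peak, chr11:5346917-5347134: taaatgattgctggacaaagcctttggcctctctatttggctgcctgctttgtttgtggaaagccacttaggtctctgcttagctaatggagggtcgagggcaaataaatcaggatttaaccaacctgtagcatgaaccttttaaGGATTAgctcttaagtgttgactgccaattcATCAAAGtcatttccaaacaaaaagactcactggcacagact
Lgr5 intron 4 peak, chr10:115486233-115486380: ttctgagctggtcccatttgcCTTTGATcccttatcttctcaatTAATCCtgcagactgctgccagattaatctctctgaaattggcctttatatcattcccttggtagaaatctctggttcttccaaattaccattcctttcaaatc
Sp5 upstream peak, central 300 bases, chr2:70471960-70472259: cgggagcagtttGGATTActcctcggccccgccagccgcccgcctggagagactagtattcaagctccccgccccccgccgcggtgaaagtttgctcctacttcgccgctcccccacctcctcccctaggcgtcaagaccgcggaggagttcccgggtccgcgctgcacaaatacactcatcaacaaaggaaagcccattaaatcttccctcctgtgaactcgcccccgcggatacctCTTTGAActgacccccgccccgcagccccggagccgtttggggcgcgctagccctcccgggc
The printed Axin2 stretches contain neither consensus, the Nkd1 and Tcf7 peaks contain the OTX consensus alone, and the Znrf3, Lgr5 and Sp5 stretches contain each of the pair a single time.

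Values per library were not used here, since the table gives the mean normalized count over all libraries. The level of each group was computed from that mean and the fold change and is called the implied level. Axin2, the standard readout of WNT activity, had 8 peaks. Its promoter peak (chromosome 11, 108920131 to 108920455, reaching from upstream of the first start site into the 5′ untranslated exon) had implied levels of 29.0 normalized counts in DMSO and 62.1 in dTAG13. In the authors' deposited table this was a log2 fold change of 1.10 (standard error 0.27, 95% interval 0.58 to 1.62, adjusted p 0.0042), that is 2.14-fold. In bulk chromatin, a change in the share of cells of a type and a change in accessibility per cell cannot be told apart. The other promoter peak of Axin2 (108920764 to 108920893) had implied levels of 15.3 and 12.6, with -0.28 (standard error 0.48, BH-adjusted p 0.793) in the authors' deposited table. The strongest upstream pair, 10474 and 9259 bases before the start, had 0.15 (standard error 0.40) and 0.18 (standard error 0.35) in the authors' deposited table, with intervals reaching at most 0.93.

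The Axin2 peak that fell lay 21639 bases past the end of the gene (chromosome 11, 108972384 to 108972460). Its implied levels were 6.36 in DMSO and 0.209 in dTAG13, and the authors' deposited table gives -4.93 (standard error 1.48, BH-adjusted p 0.0263). For the 20 lowest fold changes of the whole table the implied dTAG13 levels were of the same size, 0.212 to 0.215. Against a floor of 3 normalized counts for a group's mean, the peak was at least 2.12-fold higher in DMSO. Of its 77 bases, 76 are soft-masked as repeat in the reference, and only 3 of the 54 peaks are masked over more than 50% of their length. Whether mapping in repeats had a part in this call was not tested.

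At Nkd1, the stronger of 2 promoter peaks (chromosome 8, 88521041 to 88521365) had implied levels of 34.9 and 29.5, with -0.24 (standard error 0.32, 95% interval -0.86 to 0.38, adjusted p 0.721) in the authors' deposited table. The weaker one had -0.56 (standard error 0.68, BH-adjusted p 0.696). The peak that fell was in intron 4 of 9 (88575099 to 88575193), with implied levels of 7.09 in DMSO and 0.212 in dTAG13 and -5.06 (standard error 1.47, BH-adjusted p 0.0204) in the authors' deposited table. It was at least 2.36-fold higher in DMSO by the same floor, and its OTX consensus lies 10 bases from the midpoint. Of the 6 Nkd1 peaks, 4 had fold changes below 0. Among these was an uncalled peak 21513 bases upstream, with -1.55 (standard error 0.91, BH-adjusted p 0.344) in the authors' deposited table. The 2 other Nkd1 peaks pointed the other way without a call. A peak in intron 3 (88540078 to 88540224) had 1.47 (standard error 0.60, BH-adjusted p 0.125) and a peak 9312 bases past the gene's end (88604033 to 88604360) had 1.07 (standard error 0.48, BH-adjusted p 0.179) in the authors' deposited table.

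Sp5 had the strongest peak of the whole group, 2814 bases upstream of its start (chromosome 2, 70471884 to 70472335; mean normalized count 53.4). Its implied levels were 45.4 in DMSO and 61.4 in dTAG13, and the authors' deposited table gives 0.44 (standard error 0.24, 95% interval -0.04 to 0.91, adjusted p 0.307). The Sp5 peak at the start site had 0.18 (standard error 0.34, interval -0.48 to 0.83) in the authors' deposited table. A peak 2060 bases upstream had -0.58 (standard error 0.68, BH-adjusted p 0.683). The authors' annotation places all 3 Sp5 peaks in the promoter.

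**Figure D2:**
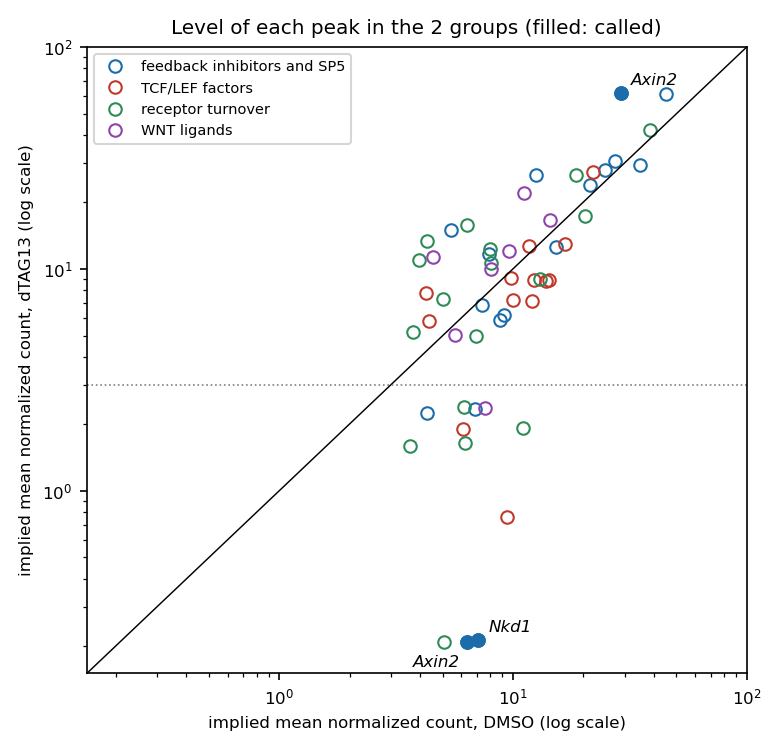
Implied mean normalized count of each of the 54 peaks in DMSO (horizontal) and dTAG13 (vertical), both on log scales, coloured by role, with the line of equality and a dotted line at 3 normalized counts. The called Axin2 promoter peak lies above the line at 29.0 and 62.1, and 12 peaks lie under the dotted line in dTAG13, among them the called peaks of Axin2 and Nkd1 at 0.209 and 0.212.

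The TCF/LEF factor genes had no called peak among 13 by the authors' adjusted p, with 1 at an unadjusted p under 0.05. Of all peaks with an adjusted p 5.26% were called, and 19.7% of all peaks had an unadjusted p under 0.05. Lef1 peaks ranged from -1.68 to 0.41 in the authors' deposited table, and the promoter peak in its first start region (chromosome 3, 131110225 to 131110369) had 0.12 (standard error 0.52) with implied levels of 11.7 and 12.7. The strongest Lef1 peak (131112350 to 131112564) had 0.32 (standard error 0.37, BH-adjusted p 0.683) in the authors' deposited table. At Tcf7, 6 of 7 peaks had fold changes below 0, 5 of them between -0.68 and -0.11, each within its interval of no change. The exception in size lay 22428 bases upstream (chromosome 11, 52305365 to 52305519), with implied levels of 9.39 in DMSO and 0.758 in dTAG13 and a deposited log2 fold change of -3.63 (standard error 1.24, BH-adjusted p 0.0569 in the authors' deposited table). It missed the threshold, and it passed when fold changes were centred on the peaks found in both groups' lists (adjusted p 0.0471).

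The receptor-turnover genes Lgr5, Rnf43 and Znrf3 had no called peak among 17 by the authors' adjusted p. An unadjusted p under 0.05 was given for 4 of them. Over all peaks the shares were 5.26% called and 19.7% at an unadjusted p under 0.05. The stronger of 2 promoter peaks of Znrf3 (chromosome 11, 5444743 to 5445179) had implied levels of 38.6 and 42.4, with 0.13 (standard error 0.27, 95% interval -0.40 to 0.67) in the authors' deposited table. The weaker one had -1.37 (standard error 0.98, BH-adjusted p 0.456). In intron 1 of Znrf3 a weak peak (5346917 to 5347134) had implied levels of 11.0 and 1.92 and a deposited -2.52 (standard error 0.90, BH-adjusted p 0.0713 in the authors' deposited table), short of the threshold. At Rnf43 the main promoter peak (chromosome 11, 87662431 to 87662720) had -0.24 (standard error 0.43) in the authors' deposited table. The Rnf43 peak with the smallest p lay 1311 bases before an internal start site (87726041 to 87726189), with 1.64 (standard error 0.66, BH-adjusted p 0.124) in the authors' deposited table.

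Lgr5 showed peaks of both signs within its promoter. Of the 4 promoter peaks, the one at the first start site (chromosome 10, 115587704 to 115587883) had implied levels of 6.33 in DMSO and 15.8 in dTAG13, and one 510 bases inside the gene had 3.97 and 10.9. The authors' deposited table gives 1.32 (standard error 0.59, BH-adjusted p 0.175) and 1.46 (standard error 0.74, BH-adjusted p 0.252) for them. Between them a peak that overlaps an exon (115587444 to 115587574) had -0.54 (standard error 0.54, BH-adjusted p 0.623) in the authors' deposited table. The intron 4 peak (115486233 to 115486380) had the lowest Lgr5 fold change, -4.61, but with a standard error of 3.58 and a BH-adjusted p of 0.503 by the authors' deposited table, and a mean normalized count of 2.63. A peak in intron 1 of Lgr5 that the authors assigned to A930009A15Rik was called higher (115548378 to 115548457, log2 fold change 5.06, standard error 1.63, BH-adjusted p 0.0419 by the authors' deposited table), with a mean normalized count of 2.43. Another call assigned elsewhere lay in the Sp5 region, at Erich2 (chromosome 2, 70500776 to 70500983), with -4.42 (standard error 1.14, BH-adjusted p 0.00759) in the authors' deposited table. Both were named after their values were seen.

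The ligand genes Wnt3 and Wnt8a had no called peak among 7 by the authors' adjusted p, with 1 at an unadjusted p under 0.05. The shares of all peaks were 5.26% called and 19.7% at an unadjusted p under 0.05. Wnt3 had 3 promoter peaks, 2988, 1492 and 68 bases before its start, all with fold changes above 0. From the far one to the near one, implied levels were 11.2 and 21.9, then 4.55 and 11.4, then 9.61 and 12.0 in DMSO and dTAG13. The authors' deposited table gives 0.97 (standard error 0.46, BH-adjusted p 0.209), 1.32 (standard error 0.70, BH-adjusted p 0.277) and 0.32 (standard error 0.56, BH-adjusted p 0.800). The intron 1 peak of Wnt3 (chromosome 11, 103778050 to 103778129) had -1.68 (standard error 0.90, BH-adjusted p 0.288) in the authors' deposited table. Wnt8a had no promoter peak. Its nearest peak lay 3967 bases upstream (chromosome 18, 34538291 to 34538401) with implied levels of 8.02 and 10.02, and the other 1094 bases past its end with 14.5 and 16.6. Neither moved by more than its error, with 0.32 (standard error 0.59) and 0.20 (standard error 0.45) in the authors' deposited table.

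Position and strength went with the sign of these values. The 24 peaks that the authors' annotation places in promoters had a median log2 fold change of 0.16, and the 30 others -0.31, in the authors' deposited table, beside -0.00199 and -0.39 for all promoter and all other peaks. The 24 peaks averaging at least 10 normalized counts had a median of 0.18 and the 30 weaker ones -0.52, beside 0.02 and -0.47 over all peaks of the same kinds. All 12 peaks whose implied dTAG13 level was under 3 normalized counts occurred in the pooled DMSO list alone, had a mean of at most 6.47, and included both lower calls. Of the 54 peaks, 28 (51.9%) overlapped a peak of both pooled lists, 20 (37.0%) of the DMSO list alone and 6 (11.1%) of the dTAG13 list alone, beside 48.2%, 40.1% and 11.8% of all peaks. The lists come from the same libraries as the fold changes.

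**Figure D3:**
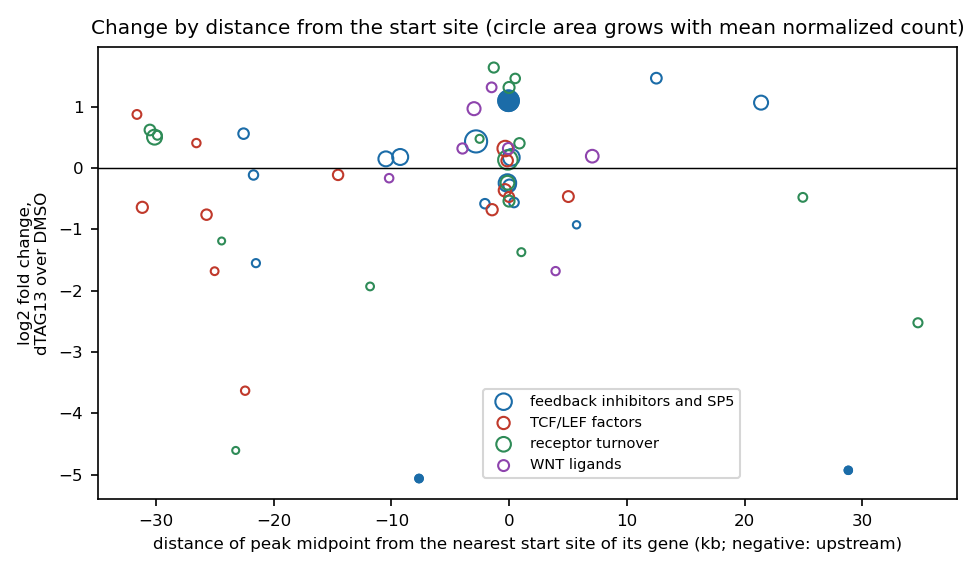
Log2 fold change of each peak against the distance of its midpoint from the nearest transcript start of its gene in kilobases, with circle area growing with mean normalized count and filled circles for called peaks. The 10 strongest peaks lie between -0.24 and 1.10, and the 5 values below -2 belong to small circles (mean normalized count at most 6.47) at least 7659 bases from a start site of their gene.

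The TCF/LEF consensus (CTTTGAT or CTTTGAA, either strand) lay within 100 bases of the midpoint in 12 of the 54 peaks (22.2%), against 6.46% of all peaks. The share was also above that of all peaks within 50 bases (13.0% against 2.98%) and within 250 bases (40.7% against 16.4%). Most of the genes were chosen as known targets of these factors. The 12 peaks included no call by the authors' adjusted p, with 2 at an unadjusted p under 0.05, and their median log2 fold change was -0.03 in the authors' deposited table. Of all peaks with this consensus 7.13% were called and 23.3% had an unadjusted p under 0.05, with a median of -0.19. The OTX consensus GGATTA lay within 100 bases of the midpoint in 6 of the 54 (11.1%, against 8.84% of all peaks): 3 at Tcf7 and 1 each at Nkd1, Lgr5 and Znrf3. Within 50 bases the shares were 11.1% and 5.02%, and within 250 bases they were 16.7% (9 peaks) and 17.0%. All 6 peaks with it within 100 bases had fold changes below 0, with a median of -3.08, beside -1.31 over all 6229 such peaks, of which 82.7% were below 0. Of the 6, 5 occurred in the pooled DMSO list alone, as did 20 of the 54, all of them below 0. These 5 had a median of -3.63. Over all peaks with the OTX consensus in that list alone the median was -2.12, with 97.9% below 0. The 48 peaks of the 10 genes without the OTX consensus within 100 bases had a median of 0.14, beside -0.12 over all peaks of that kind. The 15 of them in the DMSO list alone were all below 0, with a median of -0.92. Over all peaks without the consensus in that list alone the median was -1.14, with 93.5% below 0. Among the 48 is the strong Sp5 upstream peak, which holds GGATTA 134 bases from its midpoint and had 0.44 in the authors' deposited table. Of the 6, the Nkd1 peak was called by the authors' adjusted p and 3 had an unadjusted p under 0.05. Of all peaks with the OTX consensus within 100 bases, 14.6% were called and 39.2% had an unadjusted p under 0.05. A mean normalized count under 10 was found for 5 of the 6. SOX consensus sequences (ACAATG or ACAAAG), in 14 of the 54 (25.9%), and the T-box consensus AGGTGTGA, in 2 (3.70%), compare with 24.6% and 1.71% of all peaks. No searched sequence is contained in another, though TCF/LEF and SOX share the letters CTTTG. A match is a description of the letters only.

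**Figure D4:**
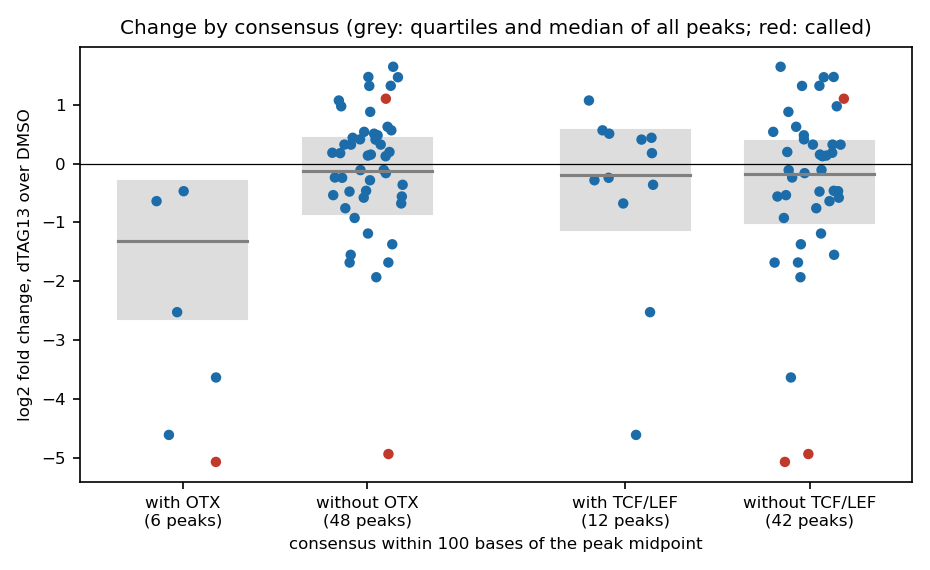
Log2 fold change of the 54 peaks split by the OTX consensus (left pair) and the TCF/LEF consensus (right pair), each point a peak, red where called, with grey boxes for the quartiles and median of all peaks of that kind. The 6 peaks with the OTX consensus lie between -5.06 and -0.47, and the 12 with the TCF/LEF consensus spread around -0.03.

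Other genes of the pathway were taken from 6 lists of 103 genes, of which 97 had 413 peaks. By the authors' deposited table, calls fell on 27 of these peaks (6.54%), 19 lower at 15 genes and 8 higher at 8 genes, beside 5.26% of all peaks, 3.79% lower and 1.47% higher. The balance depended on the zero point: centred on the median of all peaks (-0.18), 15 were lower and 18 higher, while calls over all peaks became 2.97% lower and 2.83% higher. Antagonists had 8 of 60 peaks lower and none higher by the authors' adjusted p, with 5 higher at an unadjusted p under 0.05. By the authors' gene column these 8 lay at Sfrp5, Shisa2, Dkk1 and Frzb, of which Shisa2 alone held 4. The start site nearest to each of those 4 is that of Gm19716, 30534 to 114177 bases away, so their assignment to Shisa2 is uncertain. With that centring the antagonists had 6 lower and 1 higher, the latter at Cer1. Sfrp5, a secreted Frizzled decoy, fell in a peak 13103 bases from a start site, with implied levels of 37.4 and 8.62 and -2.12 (standard error 0.44, BH-adjusted p 0.000388) in the authors' deposited table. A distant peak assigned to Shisa2, which retains Frizzled inside the cell, fell with -5.82 (standard error 1.33, BH-adjusted p 0.00191) in the authors' deposited table. It was at least 4.01-fold higher in DMSO by the floor. The other WNT targets had 1 lower and 3 higher of 73 peaks, beside 3.79% and 1.47% of all peaks. Centred on the median of all peaks, they had 1 lower and 4 higher, beside 2.97% and 2.83%. Without centring, the lower peak lay at Myc (chromosome 15, 61993202 to 61993510), with -2.93 (standard error 0.67, BH-adjusted p 0.00215) in the authors' deposited table. The 3 higher peaks lay at Mixl1, Zfp703 and Fgf8. The promoter of Mixl1, a homeobox gene of the streak, was the strongest of these, with implied levels of 41.7 and 83.2 and 0.998 (standard error 0.24, BH-adjusted p 0.0031) in the authors' deposited table.

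Receptor genes had 4 lower and 3 higher of 80 peaks, and 3 lower and 6 higher when centred on the median of all peaks. Fzd8, a Frizzled receptor, fell in a distant intergenic peak, with -4.99 (standard error 1.10, BH-adjusted p 0.00127), and Lrp5, the co-receptor, in intron 2, with -5.89 (standard error 1.32, BH-adjusted p 0.00156), both in the authors' deposited table. By the floor, they were higher in DMSO by at least 8.17-fold and 4.19-fold. The start site nearest to the Fzd8 peak is that of AC126041.1, 31706 bases away, so its assignment to Fzd8 is uncertain. An intergenic peak 26419 bases from a start site of Ryk, a WNT receptor of the kinase family, rose. So did a peak in intron 1 of Lgr6, a relative of Lgr5, 9917 bases from a start site. The authors' deposited table gives 0.97 (standard error 0.25, BH-adjusted p 0.00618) and 1.59 (standard error 0.47, BH-adjusted p 0.0221) for them. The promoter peak of Ptk7, a WNT co-receptor, rose as well, with 2.63 (standard error 0.81, BH-adjusted p 0.0311) in the authors' deposited table. Nuclear effectors had 2 lower (Tle3, Tcf7l2) and 2 higher (Tle3, Tle1) of 65, the other ligands and secretion genes 3 lower and none higher of 91 by the authors' adjusted p (7 higher at an unadjusted p under 0.05), and cytoplasmic transducers 1 lower, at Gsk3b, and none higher of 44 (1 higher at an unadjusted p under 0.05). With the same centring the nuclear effectors had 2 lower and 4 higher. The ligands and secretion genes then had 3 lower and 2 higher, and the cytoplasmic transducers none lower and 1 higher. Among the called peaks of nuclear effectors the lowest fold change was at Tle3, a Groucho corepressor, with -4.07 (standard error 0.83, BH-adjusted p 0.000289) in the authors' deposited table, while a different Tle3 peak rose by 2.79 (standard error 0.88, BH-adjusted p 0.0361 in the authors' deposited table). The start sites nearest to them are those of Gm47240 (4338 bases away) and Gm34424 (64073 bases away). The assignment of both peaks to Tle3 is therefore uncertain.

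**Figure D5:**
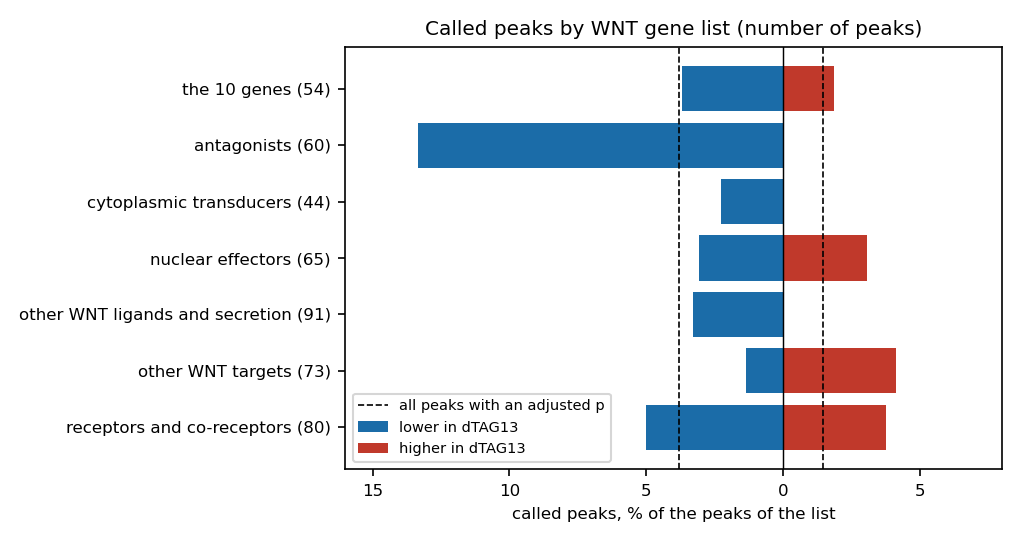
Called peaks as a percentage of the peaks of each gene list, lower in dTAG13 to the left and higher to the right, with dashed lines at the shares of all peaks (3.79% and 1.47%) and the number of peaks in parentheses. The 10 genes lie close to both lines, and the antagonists extend farthest to the left, at 8 of 60 peaks.

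The table also marks genes in columns headed DEGup and DEGdown, whose making is not stated. Of the 10 genes, Lgr5, Znrf3 and Wnt3 carry the mark for up and none that for down. Over all 26796 genes with a peak, 1.60% are marked up and 1.38% down. The marks are more frequent among the 97 other WNT genes with a peak, at 8.25% up and 9.28% down. For the 17 other WNT targets with a peak the shares are 17.6% and 5.88%, and for the 16 antagonists 12.5% and 18.8%. None of the 19 peaks of Lgr5, Znrf3 and Wnt3 was called by the authors' adjusted p, beside 5.26% of all peaks. An unadjusted p under 0.05 was given for 4 of the 19, beside 19.7% of all peaks. Among the other WNT targets, Ccnd1, Fgf8 and Mixl1 are marked up and Bambi down. Among the antagonists, Dkk1, Sfrp5 and Shisa2 are marked down and Frzb and Sfrp1 up.

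As a check of the label, all 10 endoderm markers examined, among them Sox17, Foxa2 and Gata6, had a peak within 1000 bases of a start site. Of these 21 peaks none was called by the authors' adjusted p, and 3 had an unadjusted p under 0.05. Of all peaks that the authors' annotation places in promoters, 2.73% were called and 14.1% had an unadjusted p under 0.05. No such peak was found at the pluripotency markers Nanog and Zfp42 or the mesoderm marker Msgn1, whereas Pou5f1, Sox2, Tbx6, Pdgfra, Kdr, Pax6 and Sox1 had one. A Pou5f1 promoter peak was called lower and that of Sox1, a neural marker, higher; their part in the WNT gene results was not tested. Open promoters do not measure expression.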

How the data were processed

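ATAC-seq was measured in 3 DMSO and 3 dTAG13 libraries. Per the submitters' processing notes, the tools were fastp, Bowtie2, MACS2, featureCounts, HOMER 4.11 and ChIPseeker, on mm10; their settings, and any shift for the transposase, are not given in the sources used here. The signal column, per the file headers a base mean, was taken as the mean normalized count over the libraries; how the authors normalized it is not stated. The authors' log2 fold changes (dTAG13 over DMSO), standard errors and scores were used as deposited, and the deposited p-values were tested against them: scores equalled fold change over SE within 8.72e-07, and adjusted p-values the Benjamini-Hochberg adjustment within 7.87e-06. Normalization and filtering set the zero point of the fold changes and which weak peaks have a call. Depth per library is unknown.

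Peaks were assigned by the authors' gene column. Implied group levels, 95% intervals (1.96 SE), motif matches within 100 bases of midpoints in GRCm38.p6, overlaps of at least 1 base with the pooled lists, and distances to GENCODE M21 start sites were computed with Python 3.11.15, numpy 2.4.6, pandas 2.3.3, scipy 1.17.1 and pysam 0.24.0; the functions were tested on simulated data. Members and lists were chosen with earlier results of these data known. Named peaks were, for each of the 10 genes, every called peak, the one with the smallest p, the one nearest to a start site and the strongest; for the other lists, the 6 with the smallest adjusted p in each direction over all lists together. Further peaks of the 10 genes, and genes of other called peaks, were named after their values were seen.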

Additional observations from a re-analysis of the deposited data

How the results depend on the processing

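No paired analysis was possible because each peak has a single mean and fold change and no library values were used here, and for the same reason no replicate could be left out. The lower calls among the 54 peaks numbered 2, and 4 at an adjusted p under 0.1 (Tcf7 and Znrf3 added), and 0 among peaks averaging at least 10 normalized counts, where neither called peak was tested. The single higher call, at Axin2, became 2 when all 95 peaks within 50000 bases of a start site of the genes were taken, an alternative chosen after seeing the data, as was centring on the 0.09 median of peaks in both lists. For the other WNT genes the 8 higher calls became 18 when fold changes were centred on the median of all peaks (-0.18), 19 at an adjusted p under 0.1 and 5 among peaks of at least 10, and the 19 lower calls 15, 27 and 13. The median log2 fold change of the 54 peaks turned from -0.11 to 0.18 among peaks of at least 10. The 12 peaks with the TCF/LEF consensus became 22 within 250 bases and 7 within 50. The 35 named peaks kept their calls when centred on the median of all peaks and without the filter on weak peaks, and 34 did when centred on peaks in both lists, all but that at Tcf7 (-3.73 on the log2 scale, adjusted p 0.0471). With a log2 fold change of at least 1 also required, Mixl1 and Ryk lost theirs. Some called peaks of the other WNT genes outside these 35 were less stable. Frzb, Fzd7, Gsk3b and a Shisa2 peak lost their calls when centred on the median of all peaks. Fgf8 lost its call without the filter on weak peaks and when centred on peaks in both lists. The count of reads limits the weak peaks: 30 of the 54 averaged under 10 normalized counts.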
